A study of Mus musculus with 2 samples.

Results

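Among the 43346 genes quantified in whole-stomach RNA of newborn mice, 10 genes for secreted digestive enzymes were followed: the trypsinogens Prss1, Prss2, Try4, Try5 and Gm5771, the chymotrypsinogen Ctrb1, the elastases Cela2a and Cela3b, the carboxypeptidase Cpa1 and the amylase Amy2a5. They were chosen by name, with their levels and their difference between libraries already known, so every value below is a description and none carries a test. The samples were 2 stomachs of B6NCrl pups of 1 dam, taken at age 0 days, with 1 library each from 10 ng of RNA longer than 200 nucleotides. No treatment was applied, no mutant was used, and sex was not recorded. Depth was alike, with a sum of 51524479 expected counts for pup 1 against 49983574 for pup 2. As to the labelled organ, all 7 genes of a stomach list were detected, beside 61.2% of all protein-coding genes. Among the 7, the milk-clotting protease gene Cym stood at a TPM of 59783 and 64809. TPM is a level per transcript length, with each library brought to a common total.

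These enzymes are the classic products of the acinar cells of the exocrine pancreas. Those cells store them in granules, the proteases as inactive zymogens, and release them into the duodenum. There enteropeptidase cuts a short activation peptide from trypsinogen, behind a lysine that follows a run of aspartates, and active trypsin then activates the other zymogens. Chymotrypsin and elastases cut proteins at other residues, carboxypeptidases remove the last residue of a chain, and amylase cuts starch.

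The mouse genome holds trypsinogen and pancreatic amylase as tandem copies, and how alike they are decides what a read can say. The first coding bases of the 5 trypsinogen members, matched to 100 bases of Prss1, are shown 5′ to 3′ as coding strand from the GENCODE M21 transcripts (mm10), because they hold the activation site and show the likeness of the copies. Capitals mark bases that differ from Prss1.
Prss1: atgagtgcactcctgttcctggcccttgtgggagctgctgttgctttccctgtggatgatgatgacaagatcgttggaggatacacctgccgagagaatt
Prss2: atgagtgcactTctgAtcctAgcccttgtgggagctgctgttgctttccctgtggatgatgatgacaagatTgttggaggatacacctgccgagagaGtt
Try4: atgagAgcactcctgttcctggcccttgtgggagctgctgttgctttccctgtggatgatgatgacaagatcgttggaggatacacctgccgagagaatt
Try5: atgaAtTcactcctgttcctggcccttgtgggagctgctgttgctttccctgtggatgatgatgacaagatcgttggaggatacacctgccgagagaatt
Gm5771: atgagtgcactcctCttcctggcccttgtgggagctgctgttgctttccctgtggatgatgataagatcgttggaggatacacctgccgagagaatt
Prss2 differed from Prss1 at 5 of these bases, Try5 at 2, and Try4 and Gm5771 at 1 each. Gm5771 also lacked 3 bases, so that 3 aspartate codons preceded the lysine codon in place of the 4 in the other members.

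Over the whole coding sequence, the 10 pairs of trypsinogen members were between 88.5% and 97.6% identical. The closest pairs were Prss1 with Gm5771 (97.6%, 18 differing positions of 741) and Try4 with Try5 (97.4%, 19 differing positions), and the longest stretch without a difference was 147 bases in the first pair and 274 bases in the second. Prss2 stood furthest from the others. The deposited effective lengths are those of reads of 100 bases, so coding sequence was cut into all windows of 100 bases and each window was searched in every transcript of another gene.

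None of the 642 windows of Prss2 was found in another gene, nor any of Ctrb1 and Cpa1. The shared part was 24% in Prss1, 27.9% in Gm5771, 28.0% in Try5 and 33.0% in Try4. Try5 shared windows with Try4 alone, while Prss1 and Gm5771 also shared some with the copies Gm10334, Prss3 and Try10. Cela3b shared 9.70% with its neighbour Cela3a, which had 1.12 counts in pup 1 against 1.11 in pup 2. Cela2a shared 18.8% with a transcript of Ctrc that runs across both genes, and Ctrc, chymotrypsin C, had 0 counts in both pups. Exact matches understate sharing, since an aligner also tolerates mismatches.

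Amylase is the extreme case. The coding sequences of Amy2a2, Amy2a3, Amy2a4 and Amy2a5 were identical over all 1527 bases, so that 100% of the Amy2a5 windows were shared. The first 100 coding bases of Amy2a5 therefore stand for all 4 genes, and those of Amy1, the amylase of salivary gland and liver, are given for comparison, with capitals at the 12 bases that differ.
Amy2a5: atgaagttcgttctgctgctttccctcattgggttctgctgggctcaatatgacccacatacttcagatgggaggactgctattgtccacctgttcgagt
Amy1: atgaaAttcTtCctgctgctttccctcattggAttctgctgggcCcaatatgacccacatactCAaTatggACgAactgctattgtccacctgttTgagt
Amy1 was 89.4% identical to Amy2a5 over the aligned coding sequence and shared no window of 100 bases with it.

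**Figure D1:**
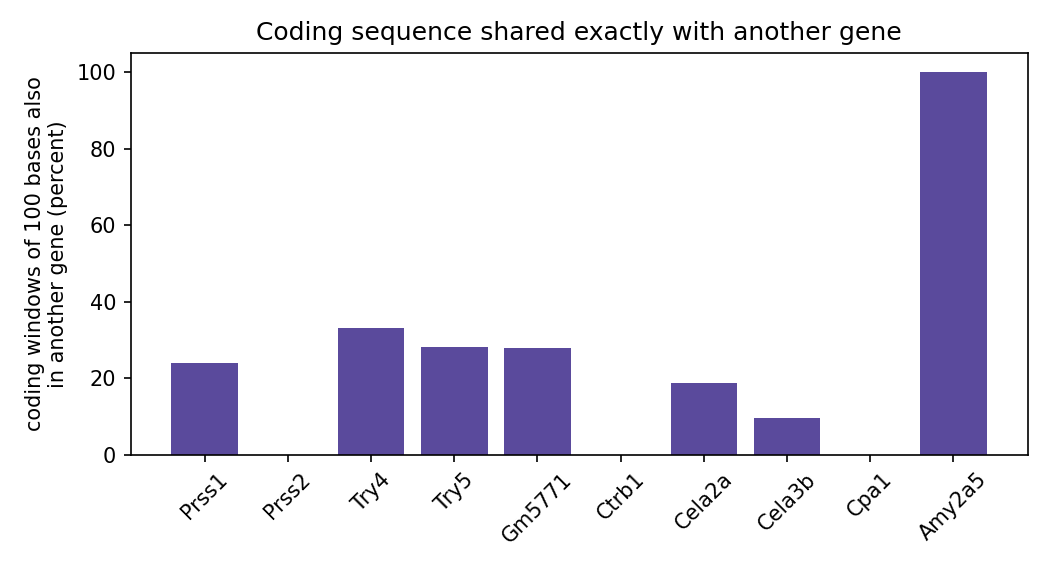
Percent of the 100-base windows of each member's coding sequence that also occur exactly in a transcript of another gene. Amy2a5 stands at 100%, 4 of the 5 trypsinogens between 24% and 33.0%, and Prss2, Ctrb1 and Cpa1 at 0.

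All 10 members reached a TPM of 1 in both pups, the level taken as detection, as did 61.2% of all protein-coding genes. Their mean levels ran from 1.19 for Cpa1 to 18.9 for Ctrb1. The median member stood at 6.94 in pup 1 against 4.49 in pup 2, below the median of 12.9 and 13.2 over detected protein-coding genes. Summed, the members held a TPM of 104 in pup 1 against 67.9 in pup 2, the sum used for comparison below. It includes Amy2a5, which is not resolved from its copies. With deposited posterior means the sum was 93.95 in pup 1 against 67.11 in pup 2. The stomach's own proteases were far more abundant, since Cym alone stood 577 and 955 times, and the pepsinogen gene Pga5 185 and 295 times, above the members' sum.

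Try5 was the highest of the trypsinogens, which lie on chromosome 6 (positions here and below are those of mm10). At its place (41311233 to 41316841, minus strand), it had a TPM of 11.5 in pup 1 (deposited 95% interval 10.1 to 12.7) and 9.80 in pup 2 (8.60 to 11), from 332 and 273 counts. The pups' intervals overlapped, and Try5 held 30.4% of the trypsinogen members' TPM in pup 1 and 41.4% in pup 2.

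Prss1 (41458932 to 41463786, plus strand) stood at 6.93 in pup 1 (5.85 to 7.91) against 4.62 in pup 2 (3.76 to 5.43). It was 1.5-fold lower in pup 2, with intervals that did not overlap. Prss2 (41521787 to 41525079, plus strand), which shared no window and had whole counts of 177 against 124, stood at 5.98 in pup 1 (5.06 to 6.79) against 4.36 in pup 2 (3.60 to 5.09), and these intervals just overlapped.

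Try4 and Gm5771 were set apart by their difference between the pups. Try4 (41302269 to 41305532, plus strand) had a TPM of 6.34 in pup 1 (5.28 to 7.27) against 2.50 in pup 2 (1.85 to 3.15), from 184 and 69.8 counts. Gm5771 (41392356 to 41397230, plus strand) had 6.94 in pup 1 (5.88 to 7.94) against 2.39 in pup 2 (1.77 to 3.04), from 201 and 66.4 counts. Try4 was thus 2.54-fold and Gm5771 2.90-fold lower in pup 2, while their level in pup 1 was close to those of Prss1 and Prss2.

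Each of the 5 genes has 5 exons in the annotation, and 1 transcript of each held all of its TPM. They lie inside the T cell receptor beta locus, where 32 receptor gene segments stand between the outermost trypsinogen copies. All 52 receptor genes of the locus together had 81 counts in pup 1 against 74.4 in pup 2, nearly all from the constant genes Trbc1 and Trbc2, which lie beyond the last trypsinogen copy.

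Ctrb1, chymotrypsinogen B (chromosome 8, 111686519 to 111691010), had the highest mean level of the members. Its TPM was 20.6 in pup 1 (18.8 to 21.9) against 17.2 in pup 2 (15.6 to 18.4), from 672 and 539 counts. The intervals did not overlap, at a 1.20-fold difference.

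The elastase gene Cela2a (chromosome 4, 141814962 to 141826160) stood at 19.3 in pup 1 (16.9 to 21.2) against 15.6 in pup 2 (13.4 to 17.3), with overlapping intervals. Most of that TPM lay outside the protein-coding transcript. A retained-intron transcript of 468 bases held 54.8% of it in pup 1 and 62.3% in pup 2, and the protein-coding transcript held 44.8% and 37.8%, a TPM of 8.63 in pup 1 (7.45 to 9.64) against 5.88 in pup 2 (4.93 to 6.77). The transcript that encodes the enzyme was therefore lower in pup 2 with intervals apart, which the gene value did not show. By counts, which are not divided by length, the protein-coding transcript held 347 of 510 in pup 1 and 227 of 369 in pup 2. The split between transcripts is itself an estimate. Taken by that transcript, Cela2a ranks below Try5 in both pups.

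Cela3b, the other elastase gene (chromosome 4, 137420999 to 137430540), stood at 4.12 in pup 1 (3.45 to 4.79) against 3.55 in pup 2 (2.93 to 4.20). Cpa1, procarboxypeptidase A1 (chromosome 6, 30639218 to 30645363), stood lowest, at 1.12 in pup 1 (0.910 to 1.47) against 1.25 in pup 2 (1.01 to 1.61), from 69 and 74 counts. The intervals of both genes overlapped between the pups, and Cpa1 was the only member with a higher value in pup 2.

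Ordered by mean TPM, the members ran Ctrb1, Cela2a, Amy2a5, Try5, Prss1, Prss2, Gm5771, Try4, Cela3b, Cpa1. Of the 9 neighbouring pairs, 5 had overlapping intervals in both pups. The step from Try5 down to Prss1 and the step from Cela3b down to Cpa1 were apart in both pups. Gm5771 lay below Prss2 in pup 2 alone, and Try4 lay above Cela3b in pup 1 alone. The place of Amy2a5 rests on its TPM: with the deposited posterior mean its mean level was 9.12 in place of 13.7, below that of Try5.

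**Figure D2:**
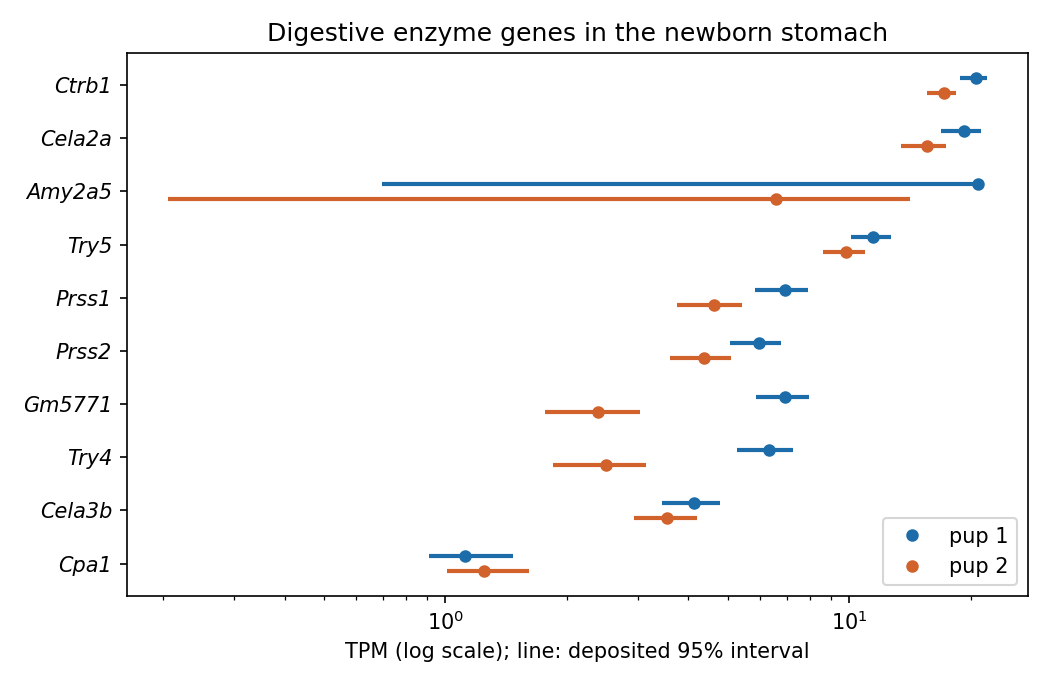
TPM of each member on a log axis in pup 1 (blue) and pup 2 (orange), with the deposited 95% interval as a line. Try4 and Gm5771 stand more than 2-fold apart between the pups with separate intervals, and the Amy2a5 interval runs from 0.699 to 20.4 in pup 1.

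The value for Amy2a5 (chromosome 3, 113247178 to 113258837) depends on how reads were divided among copies. Its TPM was 20.8 in pup 1 against 6.60 in pup 2, from 1382 and 408 counts. The deposited interval ran from 0.699 to 20.4 in pup 1, so that the TPM lay above its own interval, and from 0.205 to 14.1 in pup 2. A TPM above its interval is not particular to Amy2a5. That of Cym was 59783 in pup 1 and 64809 in pup 2, above upper bounds of 59029 and 63953. The deposited posterior mean of Amy2a5 was 11.9 in pup 1 against 6.31 in pup 2.

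The identical copies Amy2a2, Amy2a3 and Amy2a4 had the same 475 counts each in pup 1 and 401 each in pup 2. Amy2a5 thus held 49.4% of the TPM of the 4 genes in pup 1 and 26.1% in pup 2. The width of the Amy2a5 interval was 15.7 times that of counting error alone in pup 1 and 11.4 times in pup 2, against a median of 1.13 in each pup over genes with a mean count of at least 100. For the trypsinogens this factor lay between 0.983 and 1.11.

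The sum over Amy2a2 to Amy2a5 does not depend on the division within the 4 genes. It was a TPM of 42.2 in pup 1 against 25.3 in pup 2, above every single member's TPM in both pups, with each copy unresolved. The sum of posterior means was nearly the same, at 41.7 and 25.1. Amy1 stood at 1.83 in pup 1 against 1.95 in pup 2, the pseudogene Amy2b at 0.460 and 0.170 and the pseudogene Amy2-ps1 at 0.0500 and 0.0700, and Amy2a1, a copy whose whole coding sequence is contained in the others, had 0 counts.

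**Figure D3:**
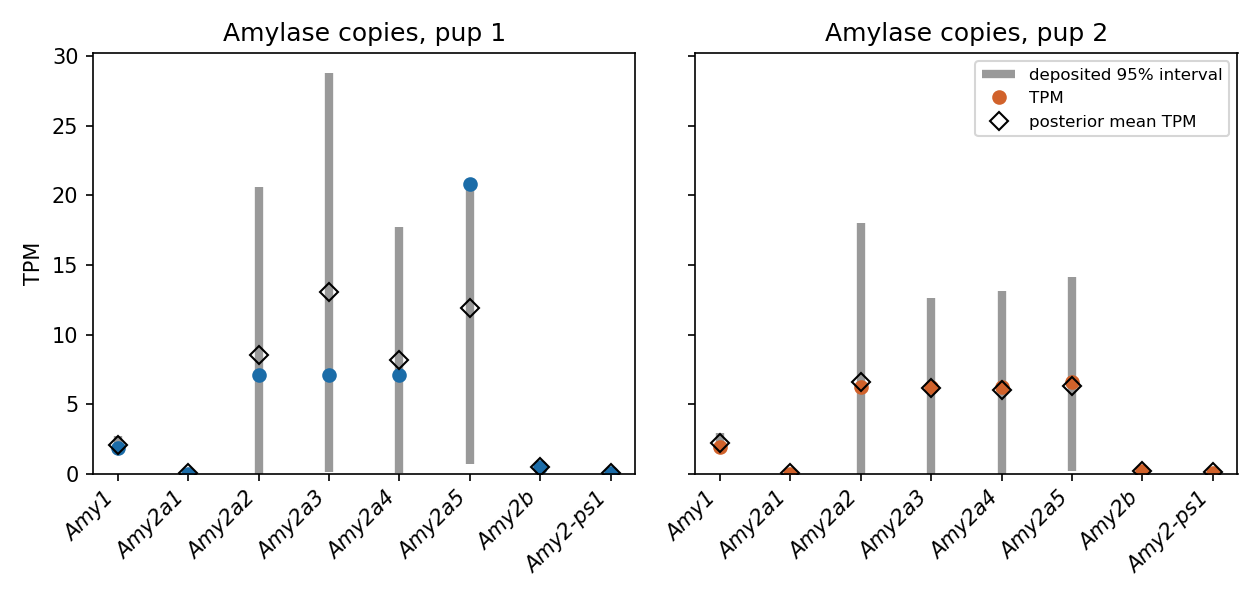
TPM (filled circles), posterior mean TPM (open diamonds) and deposited 95% interval (grey bars) of the 8 amylase copies in each pup. In pup 1 the TPM of Amy2a5 sits at 20.8, at the upper end of its interval, while Amy2a2, Amy2a3 and Amy2a4 share 1 value of 7.11.

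The pups are littermates, so a difference between them compares 2 libraries and has no replicate check. It is given as the log2 ratio of pup 2 over pup 1 after adding 1 to each TPM, which understates the difference of low genes. The median over the 10 members was -0.34, against 0.03 over the 13951 genes with a mean count of at least 100. Cpa1, with a mean count of 71.5, missed that minimum, and the other 9 members passed it.

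All 9 of these members were lower in pup 2, as were 41.4% of the 13951 genes. In 4 of the 9, Ctrb1, Prss1, Try4 and Gm5771, the intervals were apart in that direction, against 8.33% of all genes past the minimum and 4.69% of the 7912 of them within the members' range of mean TPM. Both Try4 and Gm5771 were lower at least 2-fold with intervals apart, against 0.122% of all these genes and 0.19% within that range, and no member was higher by that rule, against 0.301%. The members were chosen with this contrast known, so nothing is read from these shares.

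Summed over the 5 trypsinogen members, TPM was 37.6 in pup 1 against 23.7 in pup 2, a log2 ratio of -0.65. Per total reads, pup 2 had 0.624 times the trypsinogen reads of pup 1, with an exact 95% binomial interval of 0.565 to 0.687. Such intervals cover counting error only. The single-gene ratios were unequal: 0.848 (0.720 to 0.998) for Try5, 0.722 (0.569 to 0.914) for Prss2 and 0.658 (0.524 to 0.825) for Prss1, against 0.392 (0.293 to 0.519) for Try4 and 0.338 (0.252 to 0.449) for Gm5771.

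Each of the 2 genes that differed most has a near-identical partner that differed less, Try4 with Try5 and Gm5771 with Prss1. Summing the partners gave a read ratio of 0.685 (0.596 to 0.787) for Try4 with Try5 and 0.501 (0.421 to 0.596) for Prss1 with Gm5771. In TPM these sums were 1.45-fold and 1.98-fold lower in pup 2, so that with partners summed, a choice made after the data were seen, no member or pair passed the 2-fold limit. The sum of each pair was lower in pup 2, and whether the unequal split within a pair reflects the division of shared reads was not tested.

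The other trypsinogen copies had the same direction. Of the 12 copies listed, 11 had counts. All 11, with the 5 members among them, were lower in pup 2, beside 41.4% of all genes past the count minimum. Only 6 of the 12 copies passed that minimum. Several copies share windows, as Gm10334 and Prss3 do for 325 of 642, so the 11 are not 11 separate observations. The 7 copies that are not members, some of them annotated as predicted genes, together had 409 counts in pup 1 against 281 in pup 2, a read ratio of 0.708 (0.606 to 0.826). Among them Gm10334 stood at a TPM of 3.58 and 2.95, Prss3 at 3.16 and 2.21, Try10 at 2.03 and 1.44, and 2210010C04Rik at 1.17 and 0.870. The near-identical 1810009J06Rik and Gm2663 stood at 0.630 and 0.190 and at 0.490 and 0.200, and the pseudogene Gm5409 had 0 counts. Counts that are fractions gene by gene summed to 1505 in pup 1 against 944 in pup 2 over the 12 copies.

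The sum of Amy2a2 to Amy2a5 followed the trypsinogens, with a read ratio of 0.592 (0.556 to 0.629), in place of the 0.304 that Amy2a5 alone gave. Summed over all 8 amylase copies, the ratio was 0.607 (0.572 to 0.644). The copies were not all alike: Amy1 had a ratio of 1.02 (0.782 to 1.34), and of the 8 copies 5 were lower and 2 higher in pup 2. The summed reads of the remaining 4 members, Ctrb1, Cela2a, Cela3b and Cpa1, had a ratio of 0.814 (0.751 to 0.881). This interval overlapped those of Try5, Prss2, Prss1 and the non-member trypsinogen copies, and it lay above those of Try4, Gm5771 and the sums for trypsinogen members and amylase. With counting error between 2 libraries as the only error here, the groups are not shown to differ. The single ratios were 0.827 (0.737 to 0.927) for Ctrb1, 0.746 (0.651 to 0.854) for Cela2a, 0.855 (0.664 to 1.10) for Cela3b and 1.11 (0.786 to 1.56) for Cpa1, the last 2 of which include 1.

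**Figure D4:**
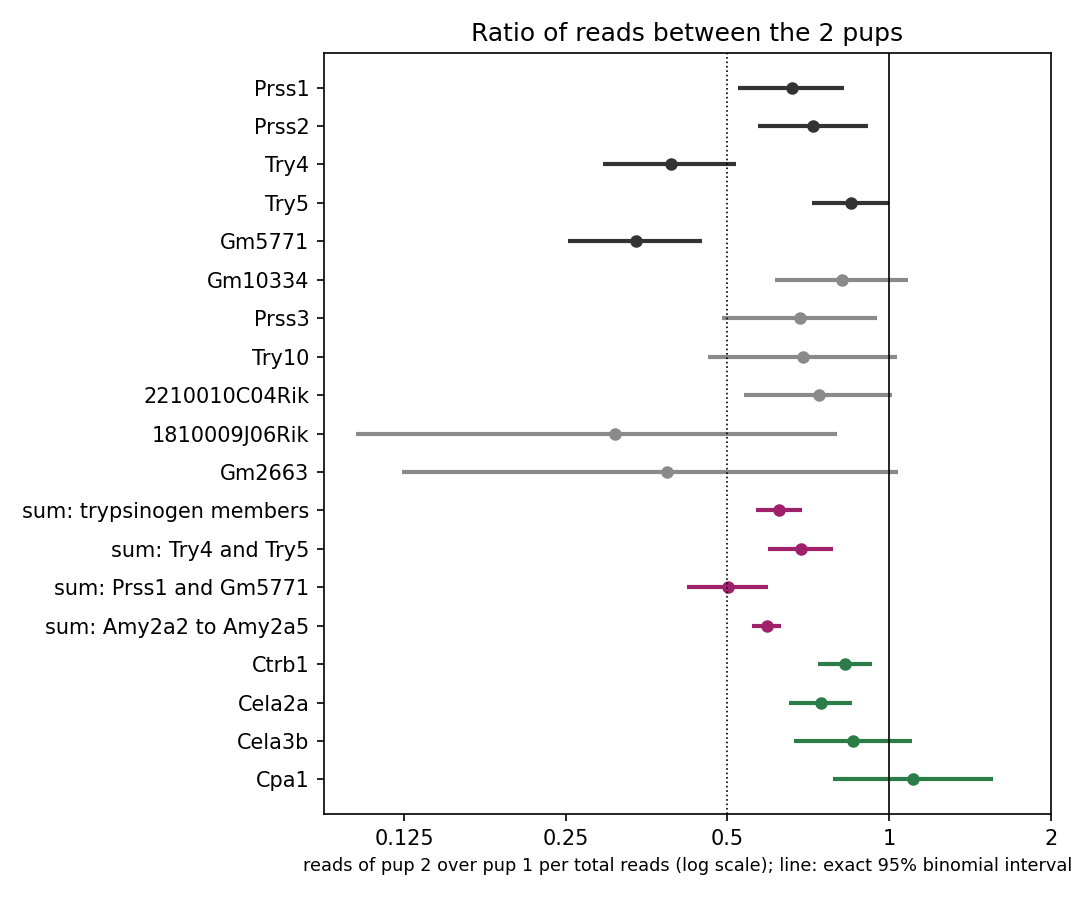
Reads of pup 2 over pup 1, per total reads, on a log axis with exact 95% binomial intervals, for trypsinogen members (black), other trypsinogen copies (grey), sums over copies (purple) and the other members (green). The sums for trypsinogens and for amylase lie at 0.624 and 0.592, while Cpa1 lies at 1.11.

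The levels of other acinar genes spanned a wide range. Of 13 further digestive enzyme genes, 9 were detected, beside the 61.2% of all protein-coding genes given above. Clps, the colipase that anchors lipase to fat, was highest at a TPM of 1891 in pup 1 against 1738 in pup 2, which is 18.2 and 25.6 times the members' sum. Pla2g1b, the secreted phospholipase, stood at 390 and 381, and Rnase1, a secreted ribonuclease, at 17.8 and 20.4. The same list held genes at or near 0: Pnlip, pancreatic lipase, had 12 counts in pup 1 against 3 in pup 2, and Ctrc had none. These genes were chosen after their values were seen, and a count of 0 allows up to 3 counts.

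Of the granule and inhibitor genes, 4 of 9 were detected, beside the same 61.2%. Sycn, which encodes the zymogen granule protein syncollin, stood at 75.1 and 74.6. Spink1, which encodes the inhibitor that blocks prematurely active trypsin, stood at 65.1 and 53.1, above the summed trypsinogen members in both pups, and Reg1 at 1.84 and 2.18. Also of that list, though chosen after their values were seen, the zymogen granule membrane protein gene Gp2 had 3 and 5 counts and Cuzd1 had 5 and 7.

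Of 6 transcription factors of acinar cells, 3 were detected, beside 61.2% of all protein-coding genes. These 3 are factors that the gastric epithelium also uses: Gata4 at 23.8 and 31.9, Gata6 at 15.5 and 17.7 and Bhlha15, a factor of secretory cells, at 7.93 and 9.95. Ptf1a and Rbpjl, subunits of the complex that switches on acinar enzyme genes, were chosen after their values were seen and stood at 0.700 and 0.410 and at 0.280 and 0.310. In whole-organ RNA, few cells with much of an RNA cannot be told apart from many cells with little of it.

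Between the pups, most other digestive enzymes had the members' direction, at a smaller size: 9 of 13 were lower and 2 higher in pup 2, with a median log2 ratio of -0.07, and of the 9 with a mean TPM of at least 1, 8 were lower, with a median of -0.08. The median was 0.03 over the granule and inhibitor genes, with 3 of 9 lower, and 0.11 over the transcription factors, with 2 of 6 lower. Over all genes past the count minimum, 41.4% were lower in pup 2. No gene of these lists differed by the 2-fold rule in either direction, against 0.122% lower and 0.301% higher over all those genes.

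**Figure D5:**
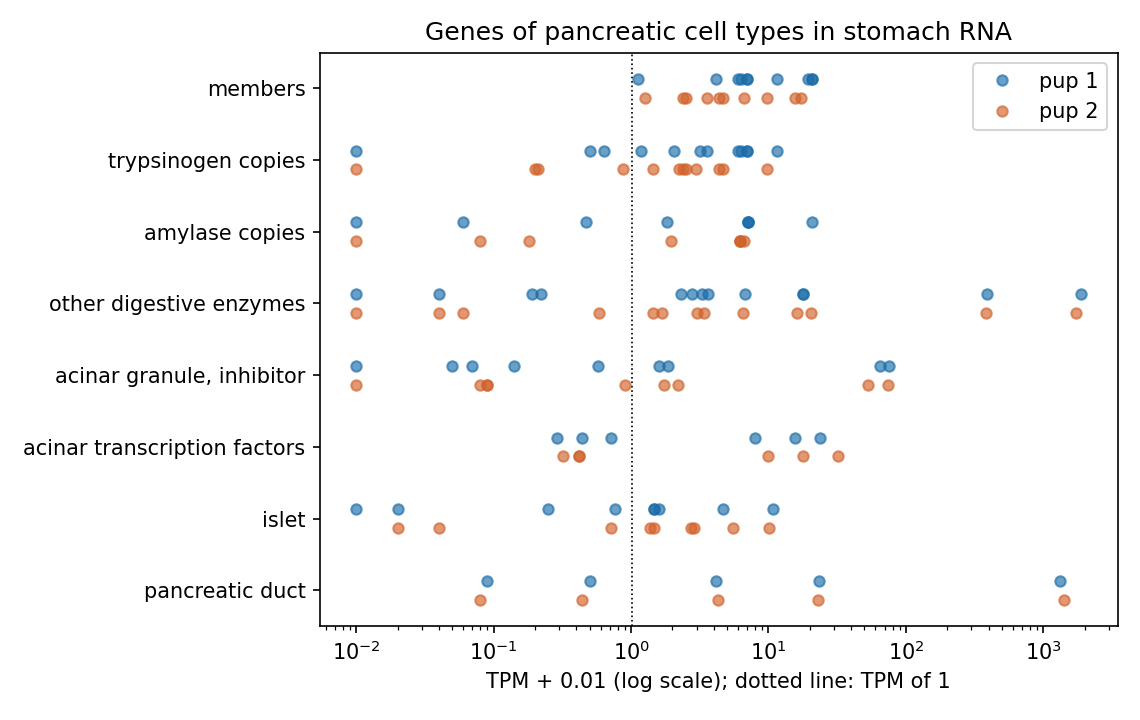
TPM plus 0.01 on a log axis of each gene of the members and of lists of pancreatic cell types in pup 1 (blue) and pup 2 (orange), with a dotted line at a TPM of 1. Clps and Pla2g1b stand far to the right among the other digestive enzymes, and each list but the members holds genes below a TPM of 1 in both pups.

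Markers of other pancreatic cells ranged from near 0 to high. Of 9 islet genes, 5 were detected, beside 61.2% of all protein-coding genes. Highest were Gcg, the glucagon precursor, at 10.7 and 10.1, Ppy at 4.67 and 2.86 and Ins2 at 1.47 and 5.55. Ins2 moved opposite to the trypsinogens, with 22 counts in pup 1 against 82 in pup 2, which is under the count minimum. The islet list had no common direction, with 3 of 9 lower and 5 higher in pup 2 and a median log2 ratio of 0.04. Over all genes past the count minimum, 41.4% were lower. Of 5 duct genes, 3 were detected, beside the same 61.2%. Krt19 stood at 1319 and 1408 and Sox9 at 23.2 and 22.9, and both are known from other epithelia. The duct genes Cftr and Onecut1, chosen after their values were seen, stood below detection. Their TPM was 0.490 and 0.430 for Cftr and 0.0800 and 0.0700 for Onecut1.

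Markers of neighbouring organs also differed between the pups. The 8 intestine genes summed to a TPM of 59.9 in pup 1 against 43.5 in pup 2. Of the 8, 7 were lower in pup 2, beside 41.4% of all genes past the count minimum. Alpi, the alkaline phosphatase of the brush border, stood at a TPM of 9.83 and 4.89 and the lactase gene Lct at 2.36 and 1.11. Both were lower by the 2-fold rule, against 0.122% of all genes past the count minimum. The defining intestinal factor Cdx2, chosen after its values were seen, stood at 0.0600 and 0.0500. The highest of the list were Fabp2 at 18.5 and 15.6, Apoa4 at 17.4 and 11.8 and the actin-bundling villin gene Vil1 at 11 and 9.54. The 7 liver genes went the other way, with a sum of 151 in pup 1 against 238 in pup 2 and all 7 higher in pup 2. They were led by Ttr at 57.1 and 60.4, Afp at 20.8 and 47.2 and Ahsg at 24.7 and 43.6. Of these genes 2, Afp and the fibrinogen gene Fgb at 2.38 and 5.21, were higher by the 2-fold rule. That compares with 0.301% of all genes past the count minimum. The lists were chosen with earlier results known, so nothing is read from these shares. Of 6 salivary gland genes none was detected, beside 61.2% of all protein-coding genes, with 3 counts of Muc19 in each pup as the highest value. The part of these tissues in the members' difference was not tested.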

How the data were processed

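Per the files deposited with each sample, the authors quantified genes and transcripts on mm10 with GENCODE M4. The sources used here name no aligner and no quantification program. The deposited expected counts are estimated reads in which reads shared by copies are divided among genes. The TPM that the authors deposited are scaled over all features and carry a 95% interval and a posterior mean; the FPKM that the authors deposited served as an alternative. Transcript tables, also deposited, give each transcript's percent of its gene. Whether counting used strand is not stated there, so overlapping genes were not told apart.

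Symbols, positions and coding sequence came from GENCODE M21 (same assembly), which matched 42462 of the 43346 genes by ID. Windows of 100 coding bases were searched on both strands in all M21 transcripts whose IDs are in the deposited tables; identity was computed from global alignments (Biopython 1.88). Ratios of reads carry exact Clopper-Pearson intervals at 95% (SciPy 1.17.1), on rounded counts and for counting error only. A gene differed beyond quantification error where the mean count reached 100, the intervals were apart and TPM differed by 2-fold or more. This rule was tested on simulated data. The simulated counts had Poisson error only and no reads shared between copies, so they could not test the rule on near-identical genes. No p was computed, since the pups form 1 group. The labels name 2 separate stomachs of 1 litter, which were treated as replicates.

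Alternatives used TMM factors from edgeR 4.0.16 (0.992 and 1.01) and size factors from DESeq2 1.42.0 (1.01 and 0.994), on 17904 genes with enough counts. Members and gene lists were chosen with earlier results of these data known. The genes named were all members, all trypsinogen and amylase copies, and of each other list the 3 highest by mean TPM plus any with a 2-fold difference and a mean count of at least 100; of the stomach list only genes that a comparison used are named. 1 duct gene under this rule is not reported here. Ptf1a, Rbpjl, Cdx2, Pnlip, Ctrc, Gp2, Cuzd1, Cftr, Onecut1 and Tmprss15 fall outside the rule and were chosen after their values were seen. No gene was named for likeness of pattern, since 2 libraries give a single ratio per gene.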

Additional observations from a re-analysis of the deposited data

How the results depend on the processing

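Of the 36 recalculations of the summary values, 32 kept their direction and lay within counting error or within 1.5 times the reported count. Part of these 32 could not have changed, so their number does not measure stability. With every member already detected, a lower detection level or a single pup had to return 10. Counts of members higher in pup 2 had little room to leave 0, since Cpa1 alone was higher, by 1.12-fold. Replacing Amy2a5, the member with the lowest ratio, by the sum of Amy2a2 to Amy2a5 left the median at -0.34. The summed trypsinogen log2 ratio ranged from -0.71 (DESeq2-scaled counts) to -0.61 (all 12 copies), around -0.65, and the median of the members from -0.47 (DESeq2-scaled counts) to -0.33 (posterior mean TPM), around -0.34. The number of members at least 2-fold lower in pup 2 was 2; it was 0 at 3-fold, 0 where 1000 counts were required and 0 with near-identical pairs summed, the last chosen after the data were seen. It was 3 with Poisson intervals after TMM scaling, which ignore how reads were divided among copies. With detection set at a TPM of 5, 4 members were detected in place of 10, and from either pup alone 10 were. From pup 2 alone, the mean levels of Amy2a5, Gm5771 and Try4 were 6.60, 2.39 and 2.50 in place of 13.7, 4.67 and 4.42, and from pup 1 alone 20.8, 6.94 and 6.34. No paired analysis was possible because the 2 libraries form 1 group. With 1 library per pup, the spread within a pup is unknown, and reads within the identical coding sequence of the amylase copies cannot be assigned at any depth; their untranslated sequence was not compared.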

Other observations

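Of 7 genes of zymogen activation and of receptors tied to secretion, 5 were detected, beside 61.2% of all protein-coding genes. Tmprss15, enteropeptidase, had 11 counts in pup 1 against 8 in pup 2, a TPM of 0.0700 and 0.0500; it was chosen after its values were seen. The lysosomal protease genes Ctsb, whose product can cut trypsinogen, and Ctsl stood at 175 and 187 and at 141 and 145. Cckar, a receptor of the hormone cholecystokinin, stood at 14.3 and 15.1. These 3 were the highest of the 7 genes of that list, whose median log2 ratio was 0.07, with 5 of 7 higher in pup 2. None passed the 2-fold rule, against 0.122% lower and 0.301% higher over all genes past the count minimum.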
